A study of Rattus norvegicus with 24 samples.

Results

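Alveolar type 1 cells are the thin, flat cells that cover most of the gas-exchange surface of the lung. The 8 genes described here, Ager, Hopx, Pdpn, Aqp5, Rtkn2, Cldn18, Clic5 and Akap5, are known markers of these cells, taken by name. They are 8 of the 30667 genes in the table, and all 8 were found and passed the filter on low values, as did every gene. They were measured by mRNA sequencing of rat lung tissue in 24 samples. Sample titles join one of the letters A, B, C and G to a number, 1 through 6, so each letter has 6 samples and each number has 4, with 1 from each letter. The protocol named for every one of the 24 samples is smoky coal, a bituminous coal, and the series design speaks of lung cancer brought about by it in rats. The labels used here give no strain, age, sex, dose or time, do not say what the letters or numbers stand for, name no control, and do not say whether a sample is tumour or whole lung. A difference between letters or numbers is therefore given by its letter or number alone, and what separates the numbers (animal, batch, site or treatment) cannot be told apart.

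In turnover and repair of the adult lung, type 1 cells arise from the cuboidal, surfactant-making type 2 cells, which flatten and spread along the alveolar wall. Spreading and the upkeep of the flat state are known to depend on YAP and TAZ, coactivators that are active in stretched cells and bind TEAD transcription factors, and on the lung factor NKX2-1. When the alveolus is injured, type 2 cells pass through a transitional state with high keratin 8 before they become type 1 cells. The 8 genes cover different parts of the cell. Ager, Pdpn, Aqp5 and Cldn18 encode proteins of the cell surface or the junctions, Clic5, Akap5 and Rtkn2 proteins of the cell cortex and its signalling, and Hopx a nuclear protein.

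The values are normalized read counts, brought by the authors close to a common total (61717516 to 66007148 per sample), so the depth of sequencing is unknown. The submitters' processing notes name a mouse genome build for these rat samples without its role, so levels are compared between samples and not between genes. The 8 genes together held between 0.415% and 0.677% of a sample's total. Genes that define alveolar cells were abundant in all samples: Sftpc, the surfactant protein of type 2 cells, lay between 603887 and 932776, and Ager between 112843 and 194247. A few libraries stood apart in markers of other tissues or cells, and they are named where a result rests on them. A2 and C2 had the highest scores for neutrophil and acute inflammation genes (2.90 and 1.505, where a score is the mean over a list of each gene's log2 value minus its mean over the 24 samples), against at most 0.57 in the samples not numbered 2. A4 and B4 had skeletal muscle scores of 5.07 and 3.42, and A4 also a squamous epithelium score of 3.58. The labels do not say that samples came from separate animals, so p-values measure the spread between these samples, part of which may be technical.

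The stretch of genome before the start of a gene holds part of the sequence that its regulators read. The windows of Clic5, Akap5 and Rtkn2 are shown because these 3 genes varied together across the samples (r of 0.80 to 0.85 between them). Hopx with Clic5 and Ager with Akap5 also had r = 0.81, and the windows of Hopx and Ager are not shown. The window of Cldn18 is shown because over the 24 samples its r with Clic5, Akap5 and Rtkn2 was at most 0.19. Each is the 250 bases before the RefSeq start on build GRCr8, written 5′ to 3′ on the strand of the gene, and capitals mark matches to the motifs searched. The windows lie at chr9:24310965-24311214 (minus strand) for Clic5, chr6:100786919-100787168 (plus strand) for Akap5, chr20:20608863-20609112 (minus strand) for Rtkn2 and chr8:109144620-109144869 (minus strand) for Cldn18.
Clic5: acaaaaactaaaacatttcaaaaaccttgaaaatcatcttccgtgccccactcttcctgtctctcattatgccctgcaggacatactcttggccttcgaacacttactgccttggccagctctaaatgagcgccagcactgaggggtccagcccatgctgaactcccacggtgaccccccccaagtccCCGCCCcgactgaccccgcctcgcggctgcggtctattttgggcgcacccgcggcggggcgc
Akap5: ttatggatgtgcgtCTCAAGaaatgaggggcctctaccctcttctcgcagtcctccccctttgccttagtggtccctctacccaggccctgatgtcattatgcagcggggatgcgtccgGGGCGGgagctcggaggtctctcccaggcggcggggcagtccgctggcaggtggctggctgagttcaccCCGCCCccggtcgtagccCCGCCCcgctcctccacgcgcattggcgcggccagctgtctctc
Rtkn2: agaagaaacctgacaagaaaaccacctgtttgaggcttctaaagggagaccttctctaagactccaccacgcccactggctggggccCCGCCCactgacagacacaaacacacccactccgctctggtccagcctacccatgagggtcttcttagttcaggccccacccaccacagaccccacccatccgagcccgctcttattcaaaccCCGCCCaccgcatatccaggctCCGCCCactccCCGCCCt
Cldn18: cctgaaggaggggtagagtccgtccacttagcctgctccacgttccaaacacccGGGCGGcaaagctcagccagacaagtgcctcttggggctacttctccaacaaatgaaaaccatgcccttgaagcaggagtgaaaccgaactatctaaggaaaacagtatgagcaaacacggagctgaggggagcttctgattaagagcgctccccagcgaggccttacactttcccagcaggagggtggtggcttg
The motifs were searched on both strands in 300 bases, from 250 before to 50 after the start, in the RefSeq windows of the 8 genes and in all 33469 windows of the table. GGGCGG, a core of the SP1 site, was found in 6 of 8 (all but Ager and Hopx) and in 33.1% of all windows. Rtkn2 had 4 matches, Akap5 3, and Clic5 and Cldn18 1 each. CTCAAG, a core of the NKX2-1 site, was found in 1 of 8, Akap5, and in 15.8% of all windows. GGAATG, a core of the TEAD site, was found in 0 of 8 and in 14.2% of all windows, and TGANTCA, the AP-1 site, in 0 of 8 and 7.33%. No match of one motif overlapped a match of another. These are matches of letters in short windows, 1 window per gene, and say nothing about where a factor binds. The share of G and C in the 250 bases before the start was 54.8% (Cldn18) to 66.8% (Akap5) in the windows shown, against a median of 51.2% over all windows; the highest of the 8 was Aqp5, with 83.2%.

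The first question was whether the type 1 genes differed between the letters. No difference was found: 0 of 8 passed the F test over the 4 letters (limma on log2 of the value + 1, p-values adjusted over all genes, threshold 0.05), a test that 2 of 30667 genes passed (0.00652%). None of the 8 had an unadjusted p under 0.05 there either, the smallest being 0.383 for Hopx. In the 6 comparisons of one letter with another, 0 of 8 passed and 0 of 8 had an unadjusted p under 0.05. With the number as a block 0 of 8 passed as well, while Hopx (0.0438) and Clic5 (0.0394) in B against A, Clic5 (0.0457) and Akap5 (0.0452) in C against A, and Hopx (0.0198) and Clic5 (0.0485) in G against A had an unadjusted p under 0.05 (adjusted p between 0.227 and 0.761). Without the block, 0% of all genes passed in B against A, in C against A and in C against B. In these, 1099, 913 and 558 genes had an unadjusted p under 0.05. When G was set against A the share was 0.00652% (2500 genes unadjusted), against B 0.00326% (1125) and against C 0.00652% (1235). With the block, 0% of all genes passed in B against A (2405 unadjusted) and in C against A (1997). In G against A 1.27% passed with the block (4648 unadjusted).

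Ager, the receptor for advanced glycation end products and one of the best known surface markers of the type 1 cell, shows the pattern of the letters. Its normalized count ran from 112843 to 185212 in A (median 169388), from 158440 to 194247 in B (median 167595), from 147215 to 184330 in C (median 168186) and from 155039 to 182408 in G (median 171843). The 4 ranges overlap. The low end of A is held by A2 and A4 (144349), both below every sample of the other letters. Over its 6 samples A had a mean of 160052 ± 27273.5 (SD, n = 6 here and for the other letters), B of 170817 ± 12679.9, C of 167168 ± 12308.8 and G of 170489 ± 11884.9. Letter A had the lowest mean and the widest spread.

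Hopx, an atypical homeodomain protein that does not itself bind DNA, had the smallest p of the 8 in G against A. It ran from 15539.8 to 26780.1 in A (median 23950.3) and from 24033.6 to 28302.5 in G (median 25551). The difference was 0.18 on the log2 scale, with a 95% confidence interval of -0.04 to 0.40 and an adjusted p of 0.701. Rtkn2, rhotekin 2, a signalling protein of the cell cortex, had the widest interval, -0.30 to 0.54 around 0.12. The number, which is not in that fit, accounted for 56.8% of the variance of Rtkn2.

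All 8 genes had a higher mean log2 value in B and in C than in A, by a median of 0.13 and 0.09, and 6 of 8 in G, by a median of 0.13, while the medians over all genes were -0.01 for each. These comparisons share the 6 A samples. Without A2, the medians were 0.02, 0.00 and 0.01, and 6, 4 and 5 of the 8 differences were positive. Without A4 they were 0.08 for each of the 3, and 7, 6 and 6 were positive. The other type 1 markers went the same way, with medians of 0.13, 0.13 and 0.12 for B, C and G against A. Of 23 found in the table, 0 passed in any of the 6 comparisons. A2 also had the lowest score of the 24 samples on this list (-0.62), and its medians without A2 were not taken.

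**Figure D1:**
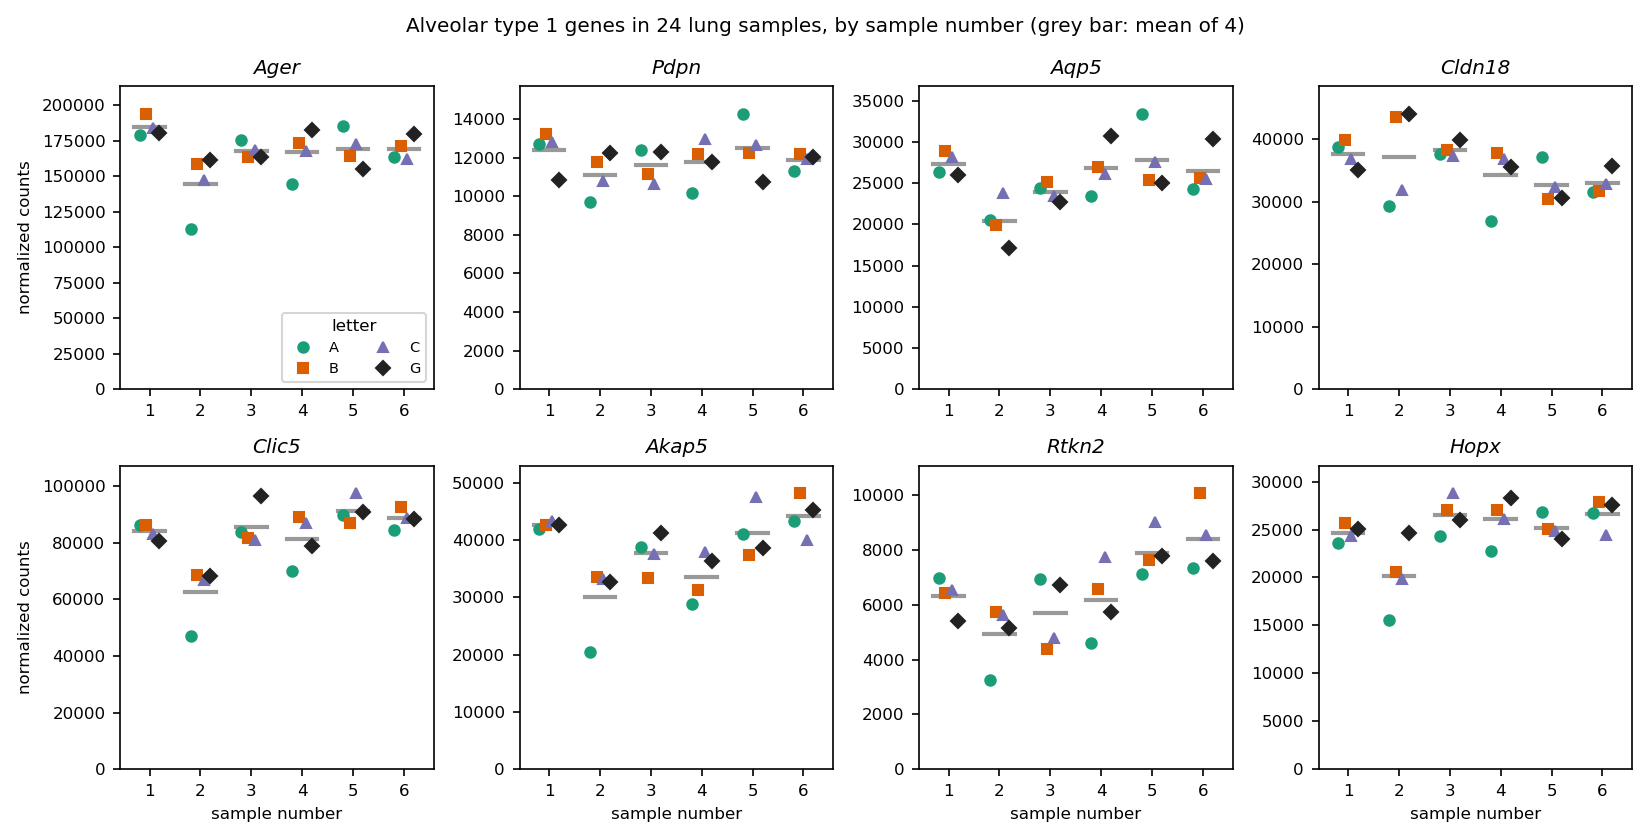
Normalized counts of the 8 genes (y axis) by sample number (x axis), with 1 point per sample shaped and coloured by letter and a grey bar for the mean of the 4 samples of a number. Number 2 has the lowest mean for every gene but Cldn18, A2 is the lowest of 24 for 6 genes, and the letters overlap throughout.

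The numbers separated the samples far more than the letters did. Clic5, Akap5, Hopx, Rtkn2 and Aqp5, differed among the 6 numbers in the F test with the letter in the fit (5 of 8 genes, against 31.5% of all genes). The adjusted p was 0.000609 for Clic5, 0.00269 for Akap5, 0.00487 for Hopx, 0.00884 for Rtkn2 and 0.0108 for Aqp5. Ager (0.0561), Cldn18 (0.318) and Pdpn (0.632) did not pass. The number accounted for 69.6% of the variance of Clic5 on the log2 scale, 61.9% of Akap5, 60.6% of Aqp5, 58.3% of Hopx, 56.8% of Rtkn2 and 47.8% of Ager, but for 27.8% of Cldn18 and 19.4% of Pdpn. The median over all genes was 37.1%, and 21.7% is the share expected with no difference. The letter accounted for 0.736% (Aqp5) to 12.7% (Hopx). The share expected is 13.04% only if neither letter nor number makes a difference. It is less for genes in which the number takes more than 21.7%, so a letter share under 13.04% is not by itself below that expected.

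Without the 4 samples numbered 2, the F test over the other 5 numbers no longer passed for Clic5 (adjusted p = 0.301), Aqp5 (0.379) or Hopx (0.533), while Akap5 and Rtkn2 still passed. Aqp5 also fell short without G2 alone (0.0519). Ager passed in 9 alternatives, with adjusted p between 0.0286 and 0.0499, among them the 3 other scalings and the fits without A3, A4, A5, G2 or G5.

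Number 2 was where the type 1 genes were low. Of the 8 genes, 6 fell in the samples numbered 2 against the mean of the other numbers and 0 rose (21.8% of all genes passed, 10.3% as lower and 11.5% as higher), and the median of the 8 was -0.38 on the log2 scale, against 0.01 over all genes. Pdpn and Cldn18 did not pass. A bulk sample cannot tell fewer type 1 cells from less RNA per cell.

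Among the genes of the cell cortex, Clic5 was the most clearly separated. It encodes a chloride intracellular channel protein that sits with ezrin at the actin cortex. Its normalized counts in number 2 were 46983 in A2, 68486 in B2, 66849 in C2 and 68174.5 in G2, and the other 20 samples ran from 70136 (A4) to 97445 (C5), with a median of 86721.5. All 4 samples numbered 2 were thus below all 20 others. Clic5 was the only one of the 8 for which these groups did not overlap, and 0.832% of all genes lay below in that way. The difference was -0.47 (SE 0.07, adjusted p = 4.92e-05), or 28.02% lower when that log2 difference is turned back into a ratio of counts.

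Akap5, a scaffold that anchors protein kinase A and calcineurin beneath the membrane, went with it. The counts were 20396 in A2, 33597 in B2, 33218 in C2 and 32665 in G2, and the others ran from 28867.5 (A4) to 48131 (B6), with a median of 40472. A4, B4 (31194.5) and B3 (33298) lay below at least 1 of B2, C2 and G2, so the groups overlapped. The difference was -0.43 (SE 0.09, adjusted p = 0.00142), and A2 lay far under the other samples of its number.

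Rtkn2 was lower by the same measure and more scattered. The counts were 3269.7 in A2, 5722 in B2, 5624 in C2 and 5148 in G2, and the others ran from 4374 (B3) to 10066 (B6), with a median of 6952. The groups overlapped in B3, A4, C3 and G1. The difference was -0.48 (SE 0.13, adjusted p = 0.0120), the largest of the 8 with the largest error.

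Hopx, the nuclear protein, split the number 2 samples. The counts were 15539.8 in A2, 20600.3 in B2, 19882 in C2 and 24676 in G2, and the others ran from 22761 (A4) to 28771.5 (C3), with a median of 25859. A2, B2 and C2 were below all 20 others, and G2 was inside their range. The difference was -0.37 (SE 0.07, adjusted p = 0.000388).

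Of the surface proteins, Aqp5 and Ager fell. Aqp5 is a water channel of the apical membrane, and its counts were 20469.5 in A2, 19939 in B2, 23839.5 in C2 and 17144 in G2, against 22748 (G3) to 33434 (A5) with a median of 25803.5 in the others. Its lowest value of the 24 was in G2, not in A2. The difference was -0.38 (SE 0.08, adjusted p = 0.00151). For Ager the counts were 112843 in A2, 158440 in B2, 147215 in C2 and 161325 in G2, against 144349 (A4) to 194247 (B1) with a median of 172146. Only A2 was outside the range of the others, and the difference was -0.25 (SE 0.07, adjusted p = 0.00982).

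Pdpn and Cldn18 were the members without a call. Pdpn, podoplanin, is a mucin-type glycoprotein of the membrane that lymphatic endothelium and mesothelium also make. Its counts were 9719 in A2, 11761 in B2, 10782.5 in C2 and 12221 in G2, against 10180.3 (A4) to 14285 (A5) with a median of 12197.5. B2, C2 and G2 lay inside the range of the others, and the difference was -0.11 (95% confidence interval -0.26 to 0.03, adjusted p = 0.294). The markers of its other sources did not move as one: Lyve1 (-0.97), Mmrn1 (-0.47) and Flt4 (-0.35) fell of 6 lymphatic endothelium genes, and 0 of 7 mesothelial genes passed, where both lists include Pdpn itself and the mesothelial list shares Krt19 with the transitional one.

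Cldn18, a tight junction claudin that type 2 cells also make, went in both directions within number 2. Its counts were 29279.7 in A2, 43568 in B2, 31954 in C2 and 44147 in G2, against 26909.6 (A4) to 39893 (G3) with a median of 36344. B2 and G2 were above all 20 others, and A2 and C2 were in their lower part. The difference over all 4 was 0.06 (95% confidence interval -0.11 to 0.24, adjusted p = 0.673). The score of the type 2 list was 0.36 in B2, 0.29 in G2, 0.17 in A2 and 0.01 in C2, against -0.35 to 0.27 with a median of -0.03 in the others.

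**Figure D2:**
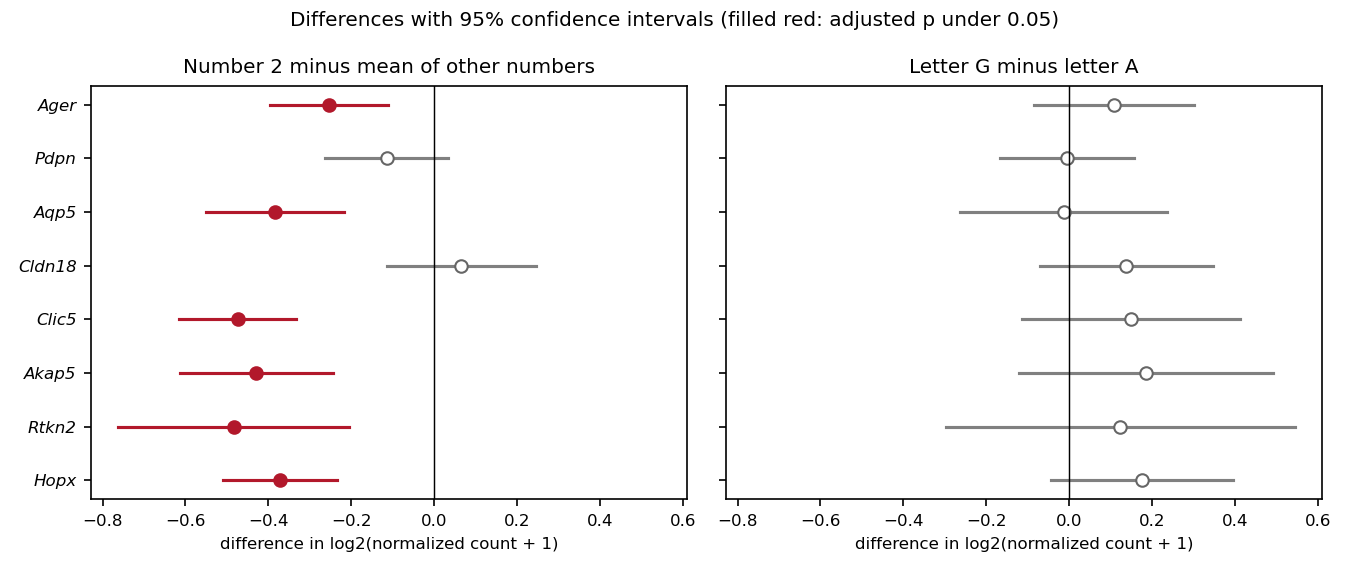
Differences in log2(normalized count + 1) of the 8 genes (x axis) with 95% confidence intervals, for number 2 minus the mean of the other numbers (left) and for letter G minus letter A (right). Filled red points passed the adjusted threshold of 0.05: 6 of 8 on the left, from -0.25 (Ager) to -0.48 (Rtkn2), and 0 of 8 on the right.

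Much of this rested on A2, which was the lowest of the 24 samples for 6 of the 8 genes and among the lowest 4 for all 8. Without A2, 4 of the 8 still fell in number 2, Akap5, Aqp5, Clic5 and Hopx (11.6% of all genes passed), while Ager (-0.14, adjusted p = 0.147) and Rtkn2 (-0.31, adjusted p = 0.162) did not pass. Without A2 and C2, the pair with high neutrophil genes, number 2 was left with B2 and G2, and 9.60% of all genes passed. Aqp5 and Clic5 were then lower, Cldn18 was higher by 0.31 (adjusted p = 0.0477), and Hopx (-0.22, adjusted p = 0.0673), Akap5 (-0.25, adjusted p = 0.102), Rtkn2 (-0.30, adjusted p = 0.337) and Ager (-0.11, adjusted p = 0.446) did not pass. Within its own letter, the sample numbered 2 was below all 5 others for 7 of 8 genes in A, 5 of 8 in C, and 4 of 8 in B and in G. Other samples could be as low within their letter: G5 was below the rest of G for 4 of 8 and C3 below the rest of C for 3 of 8. For Cldn18, B2 and G2 were instead above the rest of their letter. Clic5 was the lowest of its letter in all 4.

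The other markers of type 1 cells moved with the 8. Of 24 listed, 23 were in the table, and 18 of these passed in number 2, 17 lower and 1 higher, with a median of -0.31. Of all genes 21.8% passed there, 10.3% as lower and 11.5% as higher. Cav1 (caveolin 1, -0.66), Cav2 (caveolin 2, -0.56), Cyp4b1 (a cytochrome P450, -0.62) and Sema3a (a semaphorin, -0.62) had the smallest p-values. Cav1 was 30973 in A2, 41963.5 in B2, 48891 in C2 and 43827 in G2, below all 20 others (56487 to 76947). The exception was Ndnf, higher by 0.33 and named for that reason after its values were seen. Cav1, Cav2 and Timp3 are also made by endothelial cells. Without A2, 10 of the 23 passed, all lower, and without A2 and C2, 8 did, 7 lower and 1 higher. The count over all genes fell as well, from 6691 to 3542 without A2 and to 2943 without A2 and C2.

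Genes of the YAP, TAZ and TEAD pathway and the alveolar transcription factors were lower and higher by turns. Of 20, 7 passed, 5 lower and 2 higher, where 10.3% and 11.5% of all genes did, with a median over the list of -0.18; the higher share is near that of all genes. Tead1 (-0.40), Tead4 (-0.35), Yap1 (-0.18) and the kinases Lats1 (-0.18) and Lats2 (-0.32), which restrain YAP, fell. Cebpa (0.45), a factor of type 2 cells, and Nkx2-1 (0.26) rose. Tead1 was 9124 in A2, 13446 in B2, 12608 in C2 and 14051 in G2, all under the lowest of the others, 14756 in A4. Known targets of YAP, named here after their values were seen, did not pass: Ccn1 (-0.24, adjusted p = 0.649), Ccn2 (-0.27, adjusted p = 0.137) and Ankrd1 (-0.04, adjusted p = 0.942). Without A2, 4 of 20 passed (11.6% of all genes), and without A2 and C2, 3 (9.60%).

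Among type 2 and transitional genes those that passed were higher. Of 13 type 2 genes found, 7 rose and 0 fell (11.5% of all genes rose), with a median of 0.33, among them Sftpa1 (surfactant protein A, 0.51), Cebpa, Sftpd (surfactant protein D, 0.44) and Napsa (an aspartic protease that processes surfactant protein B, 0.34). Sftpa1 was 478718 in A2, 395538 in B2, 354918 in C2 and 400170 in G2, against 213686 to 388866 in the others, so that only C2 overlapped them. Sftpc (0.09, adjusted p = 0.581) did not pass with all samples, and did without A2 and C2, where 10 of 13 passed as higher. Of 13 transitional genes, 5 rose and 4 were on the negative side without passing. Those that rose were Tnip3 (1.58), Fn1 (0.46), Lgals3 (0.59), Sfn (0.99) and Cldn4 (0.71). Krt8, the keratin that marks the state and also named after its value was seen, was 0.21 higher and did not pass (adjusted p = 0.174). By sample, the transitional list scored highest in A2 (0.75) and C2 (0.42), while B2 (0.05) and G2 (0.10) lay inside the range of the others (-0.48 to 0.36). Without A2 and C2, Tnip3, Fn1 and Lgals3 passed.

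**Figure D3:**
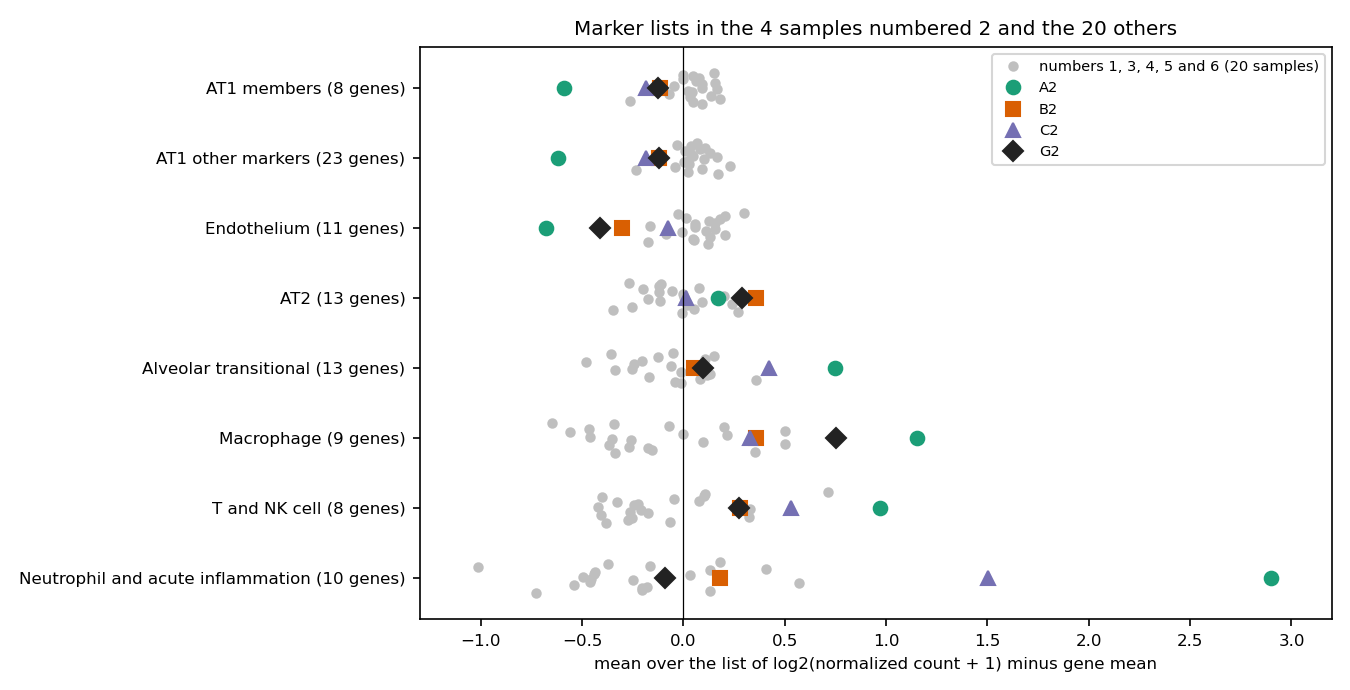
Score of each marker list (x axis, mean over the list of log2(normalized count + 1) minus the gene's mean over 24 samples) with 1 point per sample, the 4 samples numbered 2 in colour and the other 20 in grey. The 8 type 1 genes score -0.59 to -0.12 in number 2 and -0.26 to 0.18 in the others, endothelium is also low, and the neutrophil list is high in A2 (2.90) and C2 (1.505).

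Markers of other cells moved in number 2 as well, and their part in the result was not tested. Of all genes, 10.3% passed there as lower and 11.5% as higher. Of 11 endothelial genes 10 fell, among them Tek (-0.59), Ednrb (-0.69), Plvap (-0.63) and Vwf (-0.46), and their summed level was 244757 to 377520 in number 2 against 347411 to 466135 in the others. Of 9 macrophage genes Cd68 (1.09), Mmp12 (2.81), Gpnmb (0.97) and Spp1 (2.18) rose and Cd9 (-0.46) fell, with a summed level of 75204 to 117455 against 63261 to 122893. All 8 T and NK cell genes rose, with a summed level of 11607 to 19487 against 7516 to 18007. Of 10 neutrophil and acute inflammation genes Saa3 (3.95), Il1b (1.08), Lcn2 (1.58), Csf3r (1.09) and Cxcl1 (0.92) rose, with a summed level of 7522 to 54331 against 4434 to 17655, and without A2 Saa3 alone passed. No gene of these 4 lists was at 0 in any sample but Marco, a macrophage receptor that was at most 9.72. The endothelial count was 8 of 11 without A2 and 10 of 11 without A2 and C2. Of the airway lists, 4 of 8 ciliated genes fell (Tppp3, Dnah9, Dnah5 and Rsph1), and of 7 club cell genes Aldh1a1, Scgb1a1 and Cyp2f2 fell and Bpifb1 rose. Of 8 fibroblast genes the collagens Col1a1, Col1a2 and Col3a1 rose and Pdgfra and Tcf21 fell, and 5 of 6 red blood cell genes fell. In the squamous list 1 of 10 genes rose (Dsg3) and in the B and plasma cell list 1 of 7 (Mzb1), near the share of all genes. In the mesothelial and the 3 muscle lists 0 passed.

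Beyond number 2, a single member passed in 1 number. Rtkn2 was higher in number 6, at 7331 in A6, 10066 in B6, 8538 in C6 and 7604 in G6, by 0.46 (SE 0.13, adjusted p = 0.0374; 8.13% of all genes passed and 4.11% as higher). The 4 samples were in the upper part of the range of the others, which reached 9005 in C5, and only B6 was above it. Leaving out any of A6, B1, B5, B6, C1 or C6 ended the call (adjusted p between 0.0512 and 0.225, the highest without B6), as did fits without A4 and B4 (0.0592) and without number 2 (0.0697). Akap5 was 0.27 higher in number 6 and just missed (adjusted p = 0.0627). Number 6 was also the number in which 5 of 13 type 2 genes fell, among them Sftpd (-0.41) and Sftpa1 (-0.39), and 6 of 11 endothelial genes rose, among them Tek (0.33) and Kdr (0.43). In the same number 5 of 8 T and NK cell genes and 5 of 7 B and plasma cell genes rose, and 4 of 6 smooth muscle, 3 of 8 fibroblast and 1 of 9 macrophage genes fell. Of 13 transitional genes 2 fell and 1 rose. Their part in the value of Rtkn2 was not tested.

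In numbers 1, 3, 4 and 5, 0 of 8 passed, where 11.9%, 4.98%, 4.74% and 1.97% of all genes did, and 2, 0, 1 and 2 of the 8 had an unadjusted p under 0.05. Ager was highest in number 1 with 184547 ± 6831.62 (SD, n = 4), 0.18 above the mean of the other numbers (adjusted p = 0.0980). Of the 23 other type 1 markers 9 rose in number 1, among them Igfbp2 (1.04) and Limch1 (0.40). Clic5 was highest in number 5 (91248 ± 4417.62), 0.20 above the others (adjusted p = 0.138). Akap5 had its lowest mean outside number 2 in number 4 (33593 ± 4263.63), 0.21 below the others (adjusted p = 0.199), and passed as lower there without A2 (adjusted p = 0.0323). In order of means, Rtkn2 ran from number 2 (4941) through 3 (5706), 4 (6169), 1 (6333) and 5 (7884) to 6 (8385), and neighbours in that order differed by less than the larger SD of the pair, except numbers 1 and 5.

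Across the 24 samples the genes differed in how much they varied. The coefficient of variation was 8.86% for Pdpn, 10.01% for Ager, 11.9% for Hopx, 12.3% for Cldn18, 13.7% for Clic5, 13.9% for Aqp5, 16.6% for Akap5 and 23.9% for Rtkn2. The highest sample was 1.47 times the lowest for Pdpn and 3.08 times for Rtkn2. A4, the library with muscle and squamous genes, was among the lowest 4 samples for 6 of the 8 genes and the lowest of all for Cldn18, and the part of its other tissue in that was not tested.

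The 8 genes varied together to different degrees. Of their 28 pairs, 23 correlated over the 24 samples (permutation test, adjusted p under 0.05 over the 28 pairs, Pearson's r on log2 values), with a median r of 0.57 and a range of -0.11 to 0.85. Without the 2 samples farthest from the median of the first gene, 7 of 28 did, with a median of 0.38, and the samples left out included A2 for 24 of the 28 pairs. After the means of letter and number were taken out, 20 of 28 pairs passed, with a median r of 0.64 and 27 positive. That permutation treated the 24 residuals as independent, which they are not once those means are removed. Its p-values are therefore too small, and the count of 20 may be too high. The permutations of the values themselves treated samples of the same number as no more alike than others. Where the number carries much of the variance, those p-values may be too small as well, and the counts of 23 and 7 too high. The 3 genes of the cortex held together, though not they alone. Hopx with Clic5 and Ager with Akap5 each had r = 0.81 over the 24 samples, and 0.43 and 0.48 without 2 samples. Clic5 and Akap5 had r = 0.85 and a Spearman coefficient of 0.60 (permutation p = 1e-05, the smallest that 100000 arrangements can give, and 0.00219), and r = 0.67 without 2 samples. Rtkn2 and Clic5 had r = 0.81 and a Spearman coefficient of 0.83 (both permutation p = 1e-05), and 0.77 without 2 samples.

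Rtkn2 and Akap5 had r = 0.80 and a Spearman coefficient of 0.64 (permutation p = 2e-05 and 0.00115), and 0.68 without 2 samples. Among the surface proteins, Ager and Aqp5 had r = 0.64 and a Spearman coefficient of 0.84 (permutation p = 0.00144 and 1e-05), and 0.67 without 2 samples, and Ager and Pdpn r = 0.74 and a Spearman coefficient of 0.65 (permutation p = 1e-05 and 0.00078), and 0.59 without 2 samples. Aqp5 with Clic5 and Aqp5 with Akap5 each had r = 0.57 without 2 samples, which were A5 and G2 here, so that A2 stayed in. Over the 20 samples not numbered 2 their r was 0.14 and 0.27, and with letter and number means taken out 0.01 and 0.14. Over the 24 samples Cldn18 stood apart from some members, with r = -0.11 with Aqp5, -0.03 with Rtkn2, 0.16 with Clic5 and 0.19 with Akap5. Its r was 0.53 with Pdpn, 0.50 with Ager and 0.29 with Hopx. With the means of letter and number taken out, Cldn18 had r = 0.85 with Pdpn, 0.81 with Ager, 0.68 with Clic5, 0.57 with Akap5, 0.49 with Rtkn2 and 0.20 with Aqp5. Taking out those means leaves single libraries such as A2 and A4 in. Without A2 and A4, and with the means kept, its r was 0.30 with Pdpn, 0.24 with Ager, -0.36 with Clic5 and -0.37 with Akap5. The samples numbered 2 form a cluster of 4 for some of these genes, and the r over the other 20 samples had a median of 0.29.

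**Figure D4:**
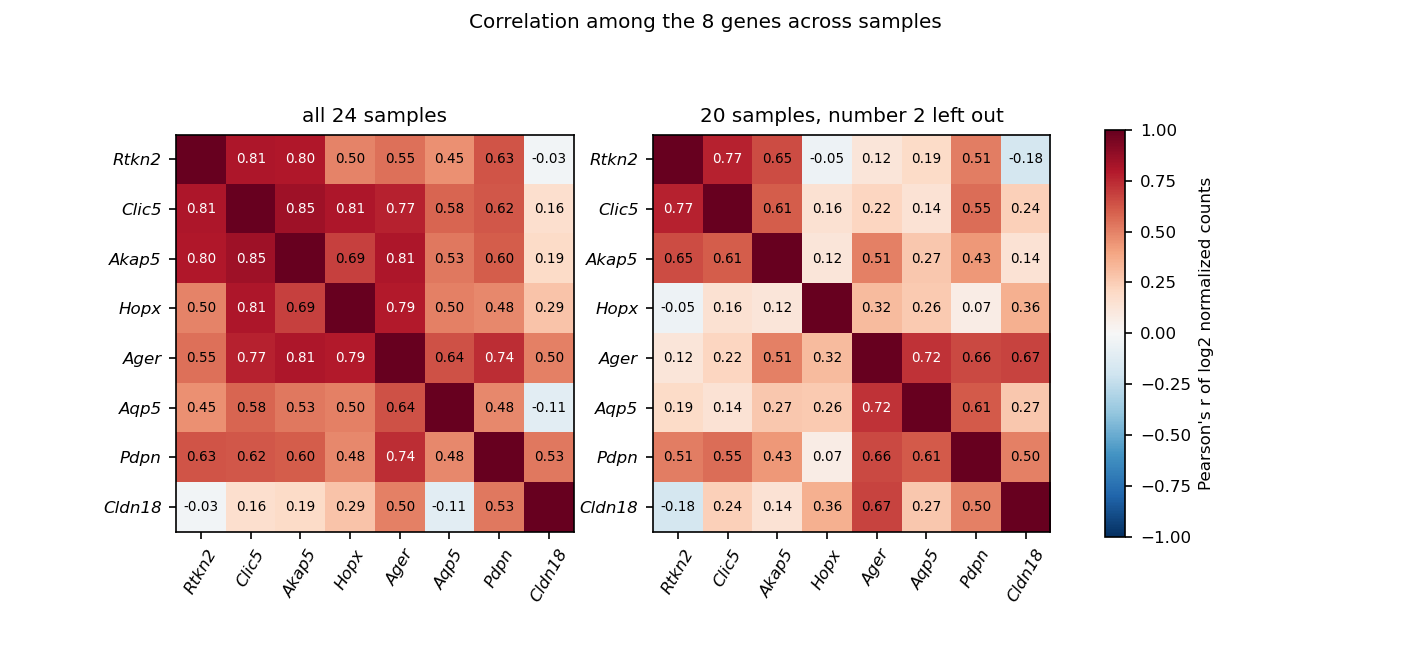
Pearson's r between the 8 genes on log2 normalized counts (colour and printed value), over all 24 samples (left) and over the 20 samples not numbered 2 (right). Rtkn2, Clic5 and Akap5 stay together on both sides (0.80 to 0.85 and 0.61 to 0.77). On the left Cldn18 is near 0 with Aqp5, Rtkn2, Clic5 and Akap5, and has 0.53 with Pdpn and 0.50 with Ager.

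The genes whose pattern over the 24 samples was most like that of each member were found among 15906 other genes with a mean of at least 100, by Pearson's r on log2 values. All these values share the same 24 libraries and are descriptions without a test. Clic5 was nearest to Lrp6, a Wnt coreceptor (r = 0.95), Wwc2 (0.95) and Utrn, utrophin (0.94). Rtkn2 was nearest to the ubiquitin ligases Itch (0.94) and Trim33 (0.93) and to Akap11 (0.93), and Akap5 to Top2b, a DNA topoisomerase (0.93), Erbin (0.92) and Kif13b, a kinesin (0.92). For these 3 members the r over the 20 samples not numbered 2 was between 0.70 (Utrn) and 0.91 (Akap11).

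Ager was nearest to App, the amyloid precursor protein (0.92), Ankrd29 (0.90) and Capn2, a calpain (0.89), and Hopx to Wnt3a (0.91), Capn2 (0.89) and Rilpl1 (0.89). Over the 20 samples not numbered 2, Hopx had r = 0.70 with Wnt3a, 0.49 with Capn2 and 0.50 with Rilpl1. The same r was 0.68 to 0.83 for the genes nearest to Ager. Aqp5 was nearest to Aldh2, the mitochondrial aldehyde dehydrogenase (0.85), Msra (0.84) and Inpp5a (0.83), and Pdpn to Gm3810 (0.89), Ppp2r5e (0.80) and Myo1c (0.78). Cldn18 was nearest to Egfl6 (0.88), Adk, adenosine kinase (0.87) and Fam234a (0.84). Without number 2 these r were 0.75, 0.81 and 0.64 for Aqp5, 0.92, 0.73 and 0.78 for Pdpn, and 0.81, 0.84 and 0.75 for Cldn18, in the same order. The mean of the 8 members was nearest to App (0.93), Cadm1 (0.92), Wwc2 (0.91), Evi5 (0.91) and Cav2 (0.91), and without number 2 these were 0.69 (Evi5) to 0.77.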

How the data were processed

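The authors deposited a single table of normalized read counts per gene (a signal, not raw counts), with totals brought close to each other. The submitters' processing notes name STAR, an aligner, and GRCm38, a mouse genome build, with no role for either; the counting, annotation, normalization and filters are not given in the sources used here. Levels were therefore compared between samples and not between genes. Of the row names, 52.6% matched a rat RefSeq symbol of assembly GRCr8, as did all 8 members. The RefSeq genes that share a member's span were long non-coding RNAs with rat LOC names, and none was in the table. The annotation counted is not given and a mouse build is named, so this absence says nothing about overlaps in that annotation.

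Values were taken as log2(value + 1), for genes whose mean reached 0.5, and fitted in limma 3.58.1 (R 4.3.3, trend). One fit had the 4 letters, and another the 6 numbers with the letter as a term. P-values are two-sided and adjusted by the Benjamini-Hochberg method over 30667 genes, with a threshold of 0.05. Fold changes on this scale understate changes of low genes. The scripts were tested on simulated data. The members, lists and alternatives were chosen with earlier results of these data known. Genes named are the 8 members, the 3 genes nearest to each, the 5 nearest to their mean, and at most 4 per list by smallest p; exceptions are marked or complete a count of at most 5.

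Whether equal numbers pair samples was checked by the correlation of deviations from the letter means over 21922 genes: all 6 pairs exceeded 0.1 in B against A (0.17 to 0.59) and C against B (0.13 to 0.60), and 4 or 5 of 6 in the other 4 comparisons. No label states a pairing. Alternatives were other pseudocounts, filters and scalings, array weights, the number as a block, and fits without single or selected libraries.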

Additional observations from a re-analysis of the deposited data

Results flagged for a closer look

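Of the 80 groups examined (8 genes in 4 letters and 6 numbers) 3 held a sample far from the others by Dixon's test, where about 1 in 20 groups, here 4, is flagged by chance. All 3 concern A2. Hopx in A2 was 15539.8, the lowest of letter A, with 22761 as the nearest value. Clic5 in A2 was 46983, the lowest of number 2, with 66849 as the nearest. Akap5 in A2 was 20396, also the lowest of number 2, with 32665 as the nearest. The part of the neutrophil and acute inflammation genes, which were highest in the same sample, was not tested.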

How the results depend on the processing

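No result changed direction past a threshold. No member passed in any comparison of letters under any alternative, the replicate block included, which changed no member's call. The block moved the counts over all genes: 12 passed among the 4 letters (2 without it), 391 for G against A (2), 2 for G against B (1) and 11 for G against C (2). In the pairing check all 6 pairs exceeded 0.1 for A with B and for B with C. In the other 4 comparisons 4 or 5 of 6 did, which falls short of the limit set but does not show that samples are unpaired. For these the block is a hint from the data only, and no label states a pairing. Counts over all genes that moved by more than 1.5 times were, among the 4 letters, 1 with a pseudocount of 10, quantile normalization, 75th percentile scaling, without A4 and B4, without A2 and C2, and without number 2. For G against A they were 5 with the 12 samples of the pair and 1 in each of the last 3 settings. For G against B they were 2 with equal totals and 3 with array weights, and for G against C 1 with the 12 samples of the pair and 1 without number 2. Array weights gave 4271 for number 2 (6691), 1814 for number 5 (604) and 4097 for number 6 (2494). Without A4 and B4 number 4 had 14 (1454). Without A2 and C2 number 2 had 2943 and number 5 had 1196. Without number 2, number 3 had 3154 (1527) and number 5 had 210; number 2 itself could not be fitted then. Leaving out 1 sample at a time gave 1 to 2 among the letters, 1 to 4 for G against A, 1 to 2 for G against B and for G against C, 8528 to 10210 among the numbers, and for numbers 1 to 6 counts of 1917 to 4100, 3542 to 7111, 543 to 2049, 383 to 1976, 2 to 891 and 747 to 2999. The correlations of the members fell from 23 to 7 pairs without the 2 farthest samples. With array weights Ager (adjusted p = 0.0513) and Rtkn2 (0.0825) did not pass in number 2, and Ager passed in number 1 (0.0204). Akap5 passed as higher in number 6 under quantile normalization (0.0123), equal totals (0.0247), a mean of at least 100 (0.0440), array weights (0.0287) and without A2 and C2 (0.0265), and as lower in number 4 without number 2 (0.0110). Without A2 and C2, Hopx did not pass among the numbers (0.150) and Cldn18 did (0.0284). Fits without samples have fewer samples to test; otherwise the cause was not tested. No depth is known, so no interval for counting error can be given.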
